A study of Mus musculus with 24 samples.

Results

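The Wnt pathway is held in check outside the cell by secreted antagonists and is read at the cell surface by Frizzled receptors. The table of left ventricular expression held all 10 genes chosen here by symbol, among 14912 genes in all. They comprise 6 secreted antagonists (Sfrp1, Sfrp2, Sfrp5, Frzb, Dkk3 and Wif1) and 4 Frizzled receptors (Fzd1, Fzd2, Fzd4 and Fzd7). The samples were left ventricles of male wild-type C57BL/6J mice. The 12 samples of the hypertensive-LVH group (LVH, left ventricular hypertrophy) came from mice given angiotensin II (ANG II), a peptide that raises blood pressure, at 1500 ng/kg/min for 7 days from osmotic mini-pumps under the skin. The 12 samples of the control group came from mice given saline in the same way for 7 days, and the hearts of both groups were flushed with saline before the ventricle was taken. The study used further samples of each group, which were not analysed here. Expression is given as FPKM, which divides the fragments of a gene by transcript length and by the mapped fragments of the sample.

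Wnt proteins are secreted, lipid-modified ligands. In the canonical branch a Wnt binds a Frizzled receptor together with Lrp5 or Lrp6, β-catenin is spared from degradation, and it drives target genes with TCF/LEF factors. In the other branches Frizzled receptors act through planar polarity proteins or calcium and NFAT. Sfrp1, Sfrp2, Sfrp5 and Frzb (also called sFRP3) carry a cysteine-rich domain like that of the Frizzled receptors and bind Wnt ligands. Wif1 binds Wnt ligands through a domain of its own, and Dkk3 is the divergent member of the Dickkopf family. In the heart, fibroblasts and the epicardium are known sources of several of these factors.

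The data had a structure that bears on every value below. Although labelled FPKM, 2741 values (0.766%) were negative, which FPKM cannot be. Exact ties between samples divided the series into 4 sets, each of 3 consecutive sample numbers in either group (1 to 3, 4 to 6, 7 to 9, and 10 to 12), and the ties and steps of the values show that each gene had been shifted and scaled set by set. This was done around a single group difference taken over the whole series, which was then put back. A group difference within a set could therefore change in size and even in sign. It had the other sign before the adjustment in 4 of the 40 pairs of a gene and a set, namely Sfrp1 (samples 1 to 3), Dkk3 (samples 7 to 9 and 10 to 12) and Fzd4 (samples 4 to 6). Calls and log2 fold changes below use the deposited values unless said otherwise. Neither the labels nor the study's methods say what the sets are. The scale of each set was recovered for all 10 genes, so that differences between the groups within a set could also be given before this adjustment. The shift of a set was not recovered, and a level can therefore be compared across sets only as adjusted. All values of a sample summed to between 460715 and 515185 for the hypertensive-LVH samples, against 482319 to 567727 for the controls. The number of fragments per sample was not given in the sources used here. The model was checked with 2 genes, of which Nppa (atrial natriuretic peptide) was higher in the hypertensive-LVH group by 6.96 on the log2 scale and Col1a1 (collagen type I) by 2.77 (limma, adjusted p = 0.000413 and 0.0180). Of the control values, 7 of Nppa and 3 of Col1a1 were negative and were set to 0, so the size of both log2 values depends on that floor. The hypertensive-LVH and control means were 2050 and 432 FPKM for Nppa, and 292 and 86.7 FPKM for Col1a1. The extraction text in the labels names a kind of cell that is not of the heart, whereas the tissue label is left ventricle, and Myl2, the ventricular myosin light chain, averaged 13232 FPKM in the control group.

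The genes lie on 9 chromosomes, with Dkk3 and Fzd4 far apart on the same one. In GENCODE vM21 (GRCm38) Sfrp1 is at chr8:23411502-23449632, Sfrp2 at chr3:83766321-83774316, Sfrp5 at chr19:42197971-42202252 and Frzb at chr2:80411970-80447625. Dkk3 is at chr7:112116017-112159057 and Wif1 at chr10:121033960-121100650. Fzd1 is at chr5:4753839-4758035, Fzd2 at chr11:102604396-102608058, Fzd4 at chr7:89404355-89413134 and Fzd7 at chr1:59482424-59486955. Fzd1, Fzd2 and Fzd7 each have a single exon, Fzd4 has 2, and the antagonists have between 3 and 10. Sfrp2 overlaps the antisense gene Gm26771 on the opposite strand, and since no source used here says that the libraries kept strand, reads from the pair cannot be told apart.

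Promoter sequences from RefSeq (GRCm38.p6) were given for 7 of the 10 genes. In each family a gene that was called higher in the hypertensive-LVH group is shown beside a gene that was not called. The 250 bases before the start are written 5′ to 3′ on the strand of the gene. Capitals mark matches to the TCF/LEF core (CTTTGNN, where each N is A or T), AP-1 (TGANTCA), the TEAD core (GGAATG), the TATA box (TATAAA) and the GC box (GGGCGG) on either strand, where GC boxes may overlap. Sfrp2 (called) is at chr3:83766071-83766320 (+), Sfrp5 (not called) at chr19:42202253-42202502 (-), Fzd1 (called) at chr5:4758217-4758466 (-) and Fzd7 (not called) at chr1:59481897-59482146 (+).
Sfrp2: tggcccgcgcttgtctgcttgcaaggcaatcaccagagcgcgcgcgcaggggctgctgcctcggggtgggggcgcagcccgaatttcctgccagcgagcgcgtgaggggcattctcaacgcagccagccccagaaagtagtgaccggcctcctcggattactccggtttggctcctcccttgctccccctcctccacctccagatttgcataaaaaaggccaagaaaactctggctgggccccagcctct
Sfrp5: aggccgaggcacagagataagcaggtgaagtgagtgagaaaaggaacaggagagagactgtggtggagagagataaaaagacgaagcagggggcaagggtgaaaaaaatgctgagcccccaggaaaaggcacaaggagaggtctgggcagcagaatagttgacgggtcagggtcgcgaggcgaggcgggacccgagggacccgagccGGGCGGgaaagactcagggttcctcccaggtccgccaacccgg
Fzd1: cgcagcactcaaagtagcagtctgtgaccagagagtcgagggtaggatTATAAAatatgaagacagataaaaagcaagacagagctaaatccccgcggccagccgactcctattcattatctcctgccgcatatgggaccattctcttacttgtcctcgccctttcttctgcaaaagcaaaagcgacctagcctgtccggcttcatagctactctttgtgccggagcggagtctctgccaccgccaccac
Fzd7: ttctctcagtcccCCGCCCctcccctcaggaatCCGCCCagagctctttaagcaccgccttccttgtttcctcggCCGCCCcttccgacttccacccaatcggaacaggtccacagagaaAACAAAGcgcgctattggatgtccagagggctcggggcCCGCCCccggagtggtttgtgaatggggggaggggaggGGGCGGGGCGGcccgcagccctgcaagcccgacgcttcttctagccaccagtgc
The window of Fzd7 was the only one of the 7 with a TCF/LEF core, from 130 to 124 bases before the start, a motif found in 14.8% of 32851 such windows. Fzd7 also held 6 GC boxes and Fzd4 held 7, and GC boxes were found in 5 of the 7 windows, beside 32.7% of all windows. The start used is that of RefSeq, which is not always the GENCODE start. Inside the GENCODE gene lay 229 of the 250 bases for Frzb, 44 for Wif1 and 11 for Fzd4. A match to the TATA box lay in 2 of the 7 windows, beside 12.4% of all. It ran from 202 to 197 bases before the start in Fzd1 and from 232 to 227 in Wif1. AP-1 and TEAD motifs were in 0 of the 7, beside 6.75% and 12.6% of all. Sfrp2, which was called, held none of the motifs searched, and the GC content of the 4 windows shown was 63.6% in Sfrp2, 59.6% in Sfrp5, 51.2% in Fzd1 and 65.2% in Fzd7, beside a median of 52.4%. A match is a run of letters and does not show that a factor binds there.

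Within the control group Dkk3 and Fzd4 had the highest means, at 12.3 ± 20.2 and 12.0 ± 2.08 FPKM (SD, n = 12 for these and all means below). They were followed by Sfrp1 at 7.44 ± 4.79, Sfrp2 at 5.77 ± 5.10, Frzb at 3.98 ± 3.06 and Wif1 at 3.33 ± 1.84 FPKM. Fzd1 averaged 2.90 ± 0.885, Fzd7 2.52 ± 0.969, Fzd2 2.16 ± 1.03 and Sfrp5 1.86 ± 1.25 FPKM. Each gene differed from the next in this order by less than the larger of their SD values. In the hypertensive-LVH group the order began with Dkk3, Sfrp1, Sfrp2, Fzd4 and Frzb, and the step from Frzb to Fzd1 was the only one larger than the SD of both neighbours. Fzd4 was the leading Frizzled transcript in both groups. It made up 38.4% of the summed FPKM of the 9 Frizzled genes in the table in the control group and 37.4% in the hypertensive-LVH group, with Fzd6 next at 22.2% and 20.6%.

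**Figure D1:**
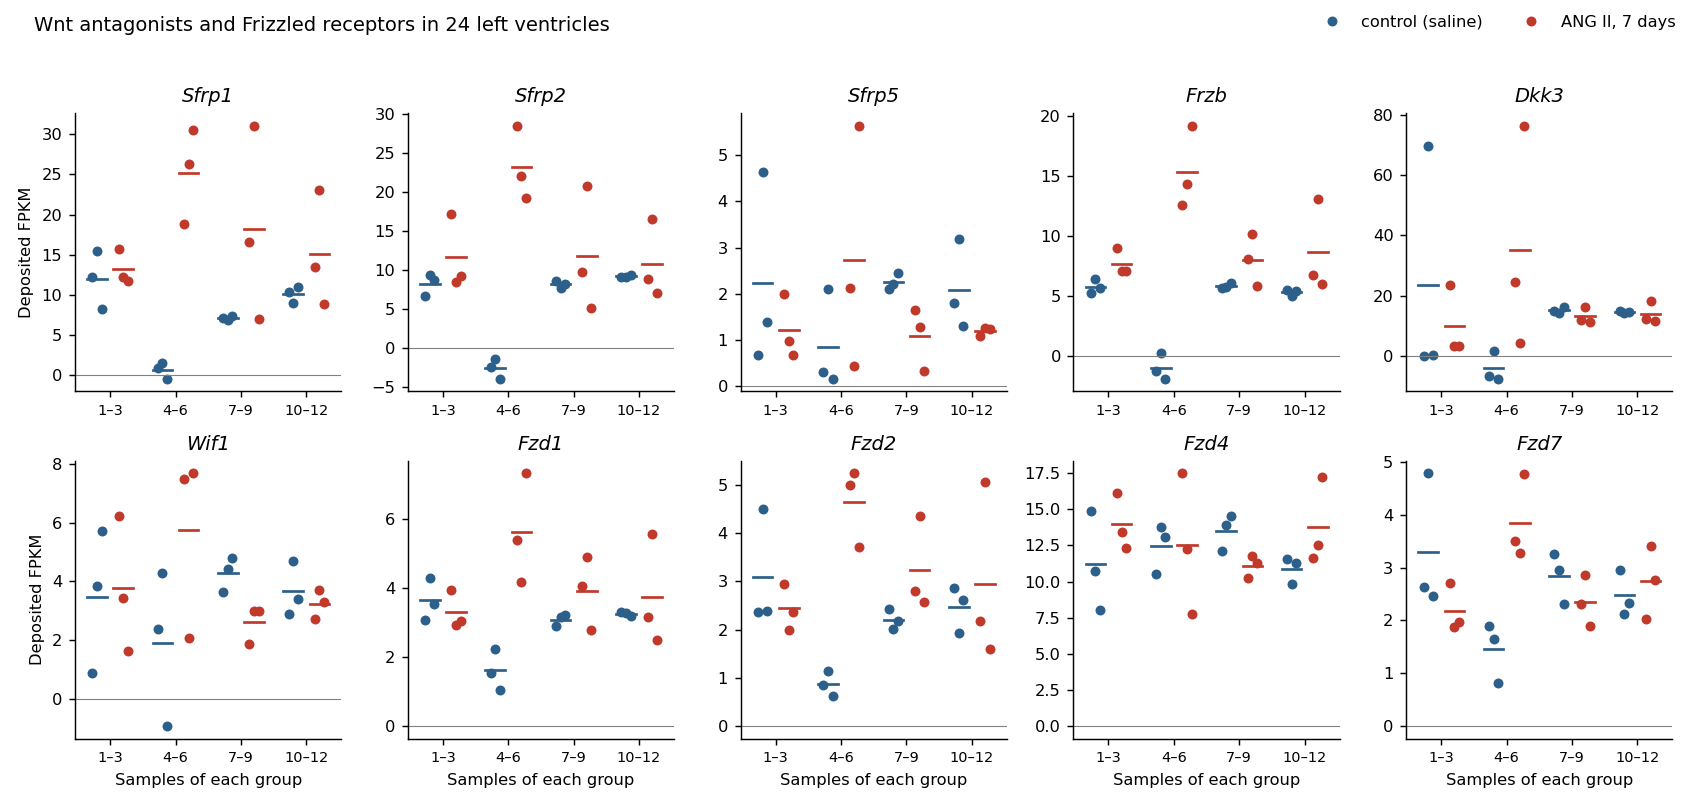
Deposited FPKM of each gene in all 24 left ventricles, by set of samples (x axis) and group (blue, control; red, hypertensive-LVH); dots are samples and bars the mean of 3 samples. The control samples 4 to 6 lie below the other control samples for Sfrp1, Sfrp2 and Frzb, and Fzd4 shows no such step.

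Under ANG II, 5 of the 10 genes were higher at an adjusted p under 0.05 (Sfrp1, Sfrp2, Frzb, Fzd1 and Fzd2) and 0 were lower, in limma on log2(FPKM + 1) with p adjusted over 14026 genes by the Benjamini-Hochberg method. Of all genes tested, 33.5% were called, 20.9% as higher and 12.6% as lower. At an unadjusted p under 0.05 the counts of the 10 genes were again 5 and 0, beside 29.0% of all genes higher. A Wilcoxon rank-sum test called 3 higher and 0 lower, beside 17.9% of all genes higher. The antagonists Sfrp1, Sfrp2 and Frzb also changed by more than 0.5 on the log2 scale, and so were differentially expressed genes (DEGs), beside 4.52% of all genes that were DEGs in this direction and 1.40% in the other. The median log2 fold change was 1.19 over the 6 antagonists and 0.26 over the 4 receptors, beside 0.05 over all genes tested. The study describes its samples as biological replicates, and the labels do not tie each of them to a mouse.

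The calls rested largely on samples 4 to 6. Without these 6 samples, Frzb was the only one of the 10 genes called, at a share of 8.36% of all genes called higher, and the median log2 fold change was 0.20 over the antagonists and 0.08 over the receptors. In samples 4 to 6 alone 7 of the 10 were called higher, beside 22.1% of all genes. The deposited values had been adjusted around a group difference over the whole series. Fits that leave out samples are therefore not independent of the samples left out.

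Sfrp1, a Wnt-binding antagonist, had a lowest, median and highest value of 7.01, 16.1 and 31.1 FPKM under ANG II and of -0.466, 7.81 and 15.5 FPKM in controls. The groups overlapped, with 7 hypertensive-LVH samples above the highest control and 11 above the control median. The log2 fold change was 1.40 ± 0.384 (SE; limma, adjusted p = 0.00733), and without samples 4 to 6 it was 0.54 ± 0.216 (limma, adjusted p = 0.0822). Before the adjustment the hypertensive-LVH mean was higher than the control mean by 24.5 FPKM (samples 4 to 6), 11.5 FPKM (7 to 9) and 5.74 FPKM (10 to 12). The difference was -2.61 FPKM for samples 1 to 3. An exact permutation test of these differences within sets gave an adjusted p of 0.0257. This test called 18.0% of 13593 genes higher before the adjustment and 16.4% of 14026 on the deposited values.

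Sfrp2, a fibroblast-expressed member of the same family, ran from 5.08 through a median of 13.1 to 28.5 FPKM under ANG II. The control samples ran from -3.90 through 8.43 to 9.40 FPKM, and the 3 negative values were control samples 4 to 6. Among the other 9 control samples the adjusted values of Sfrp2 lay within a narrow band of 6.66 to 9.40 FPKM. Of the hypertensive-LVH samples 7 lay above this band, and only the lowest, at 5.08 FPKM, lay below it. The log2 fold change was 1.35 ± 0.441 (SE; limma, adjusted p = 0.0208) and 0.28 ± 0.190 without samples 4 to 6 (limma, adjusted p = 0.323). Before the adjustment the mean was higher in all 4 sets, by 1.95, 24.3, 6.87 and 2.78 FPKM in order of sample number. This was the case for Frzb and Sfrp2 among the 10 genes and for 21.6% of all genes with recovered scales, and the exact permutation test within sets gave an adjusted p of 0.0141 for Sfrp2.

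Frzb separated the groups most fully by the count of samples above the highest control, although the size of its difference varied strongly between the sets. Its values ran from 5.86 through a median of 8.51 to 19.2 FPKM under ANG II, against -1.91 through 5.48 to 6.45 FPKM in controls. All 12 hypertensive-LVH samples were above the control median, 10 were above the highest control, and 10 controls were below the lowest hypertensive-LVH sample. The log2 fold change was 1.30 ± 0.349 (SE; limma, adjusted p = 0.00638), and 0.42 ± 0.111 without samples 4 to 6 (limma, adjusted p = 0.0112). Before the adjustment the differences were 0.533, 16.5, 4.31 and 3.93 FPKM in order of sample number, and the groups did not overlap in 3 of the 4 sets. The exact permutation test within sets gave an adjusted p of 0.00227 for these differences.

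**Figure D2:**
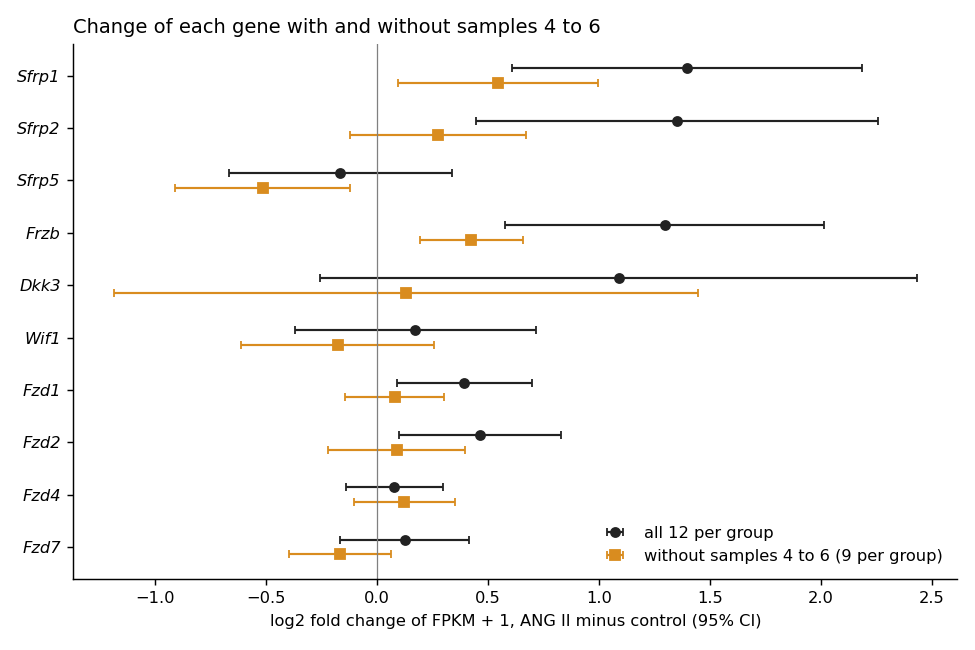
Log2 fold change of FPKM + 1, hypertensive-LVH minus control, with 95% confidence intervals from limma, over all samples (black circles, 12 per group) and without samples 4 to 6 (orange squares, 9 per group). Frzb moves from 1.30 to 0.42 and keeps an interval above 0, and Sfrp2 moves from 1.35 to 0.28 with an interval that includes 0. Both fits use values adjusted with all samples in.

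The other 3 antagonists did not pass the test. Sfrp5, an antagonist also made by adipose tissue, averaged 1.55 ± 1.40 FPKM in the hypertensive-LVH group and 1.86 ± 1.25 in the control group, with a log2 fold change of -0.17 ± 0.245 (SE; limma, adjusted p = 0.621). Without samples 4 to 6 the value was -0.52 ± 0.189 (limma, adjusted p = 0.0595), and the differences before the adjustment were negative in the other 3 sets. Wif1 averaged 3.84 ± 2.11 and 3.33 ± 1.84 FPKM, a log2 fold change of 0.17 ± 0.264 (limma, adjusted p = 0.635), and its 95% interval reached from -0.37 to 0.72.

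Dkk3 had the widest spread of the 10. The hypertensive-LVH samples ran from 3.19 through a median of 12.1 to 76.4 FPKM, the control samples from -7.50 through 14.3 to 69.8 FPKM. The mean was higher in the hypertensive-LVH group and the median in the control group. The log2 fold change was 1.09 ± 0.655 (SE; limma, adjusted p = 0.199), and the differences before the adjustment were -25.1, 49.5, 2.90 and 2.18 FPKM in order of sample number. Dkk3 had a log2 fold change of 0.13 without samples 4 to 6 (limma, adjusted p = 0.906). The highest values were those of control sample 2 (69.8 FPKM) and hypertensive-LVH sample 6 (76.4), and these were also the samples with the highest sum over 4 atrial myocyte markers (Myl4, Myl7, Sln and Nr2f2), at 3168 and 2315 FPKM. The lowest atrial sums were 5.71 FPKM under ANG II and 2.81 FPKM under saline, and 0 of the 4 markers were called. Negative values were set to 0 in these sums, and Myl4, Myl7 and Sln each had 7 negative values. A low sum therefore does not measure the level of these 3 markers. Across the 24 samples, after the mean of each group in each set was removed, log2 values of Dkk3 and of the atrial sum had a Pearson r of 0.97, and Sfrp5 had an r of 0.84. With the sum of adipose tissue markers r was 0.93 for Dkk3 and 0.75 for Sfrp5. With the endocardium and valve sum it was 0.82 and 0.70. The adipose sum was also highest in control sample 2 (53.7 FPKM) and hypertensive-LVH sample 6 (63.8 FPKM). The samples share the steps of dissection and sequencing, and the part of atrial or adjacent tissue in the values of Dkk3 and Sfrp5 was not tested. Without these 2 samples Dkk3 had a log2 fold change of 1.18 (limma, adjusted p = 0.129) and Sfrp5 of -0.20 (adjusted p = 0.455).

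**Figure D3:**
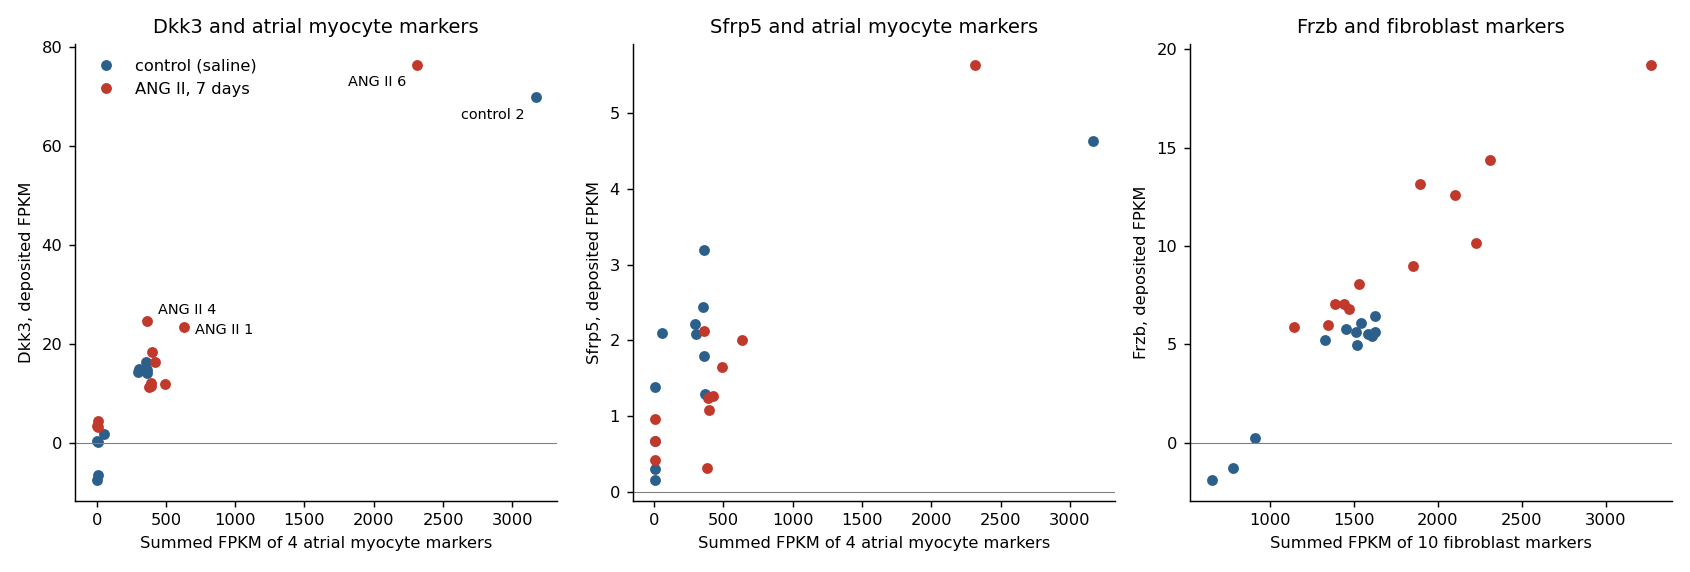
Deposited FPKM of Dkk3 and Sfrp5 against the summed FPKM of 4 atrial myocyte markers, and of Frzb against the sum of 10 fibroblast markers, in 24 samples (blue, control; red, hypertensive-LVH). Control sample 2 and hypertensive-LVH sample 6 stand at the upper right of the first 2 panels, at 69.8 and 76.4 FPKM of Dkk3.

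Among the receptors, Fzd1 and Fzd2 were called and Fzd4 and Fzd7 were not. Fzd1, a receptor that acts in canonical Wnt signalling, ran from 2.49 through a median of 3.98 to 7.31 FPKM under ANG II, against 1.05 through 3.17 to 4.29 FPKM in controls. Fzd2, a receptor of Wnt5a among other ligands, ran from 1.59 through 2.88 to 5.24 FPKM under ANG II, against 0.619 through 2.27 to 4.51 FPKM. Both genes overlapped widely between the groups, with 4 and 3 hypertensive-LVH samples above the highest control. The log2 fold changes were 0.39 ± 0.148 for Fzd1 (limma, adjusted p = 0.0419) and 0.46 ± 0.177 for Fzd2 (limma, adjusted p = 0.0456). Without samples 4 to 6 they were 0.08 (limma, adjusted p = 0.640) and 0.09 (adjusted p = 0.711). The differences before the adjustment were negative in samples 1 to 3, at -0.940 FPKM for Fzd1 and -1.49 for Fzd2, and positive in the other sets. An exact permutation test within sets called neither gene on the deposited values (adjusted p = 0.0841 and 0.0930) or before the adjustment (0.0865 and 0.183).

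The call of Fzd1 was lost when any one of 11 samples was left out, namely hypertensive-LVH samples 1, 4, 5, 6, 7, 8 and 11 and control samples 4 to 7. The call of Fzd2 was lost without any one of 13, namely hypertensive-LVH samples 1, 4, 5, 6, 8 and 11 and control samples 3, 4, 5, 6, 8, 9 and 11. Sfrp1, Sfrp2 and Frzb were called in all 24 such fits.

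Fzd4, a receptor best known from blood vessels that also binds norrin, had the log2 fold change of smallest absolute size among the 10 over all samples. It ran from 7.74 through a median of 12.3 to 17.5 FPKM under ANG II, against 8.01 through 11.8 to 14.9 FPKM in controls. The log2 fold change was 0.08 ± 0.107 (limma, adjusted p = 0.598), and its 95% interval from -0.14 to 0.30 bounds the change that these samples allow. The value was 0.12 without samples 4 to 6, above those of Fzd1 and Fzd2. Fzd7, a receptor known from stem and progenitor cells, averaged 2.78 ± 0.863 and 2.52 ± 0.969 FPKM, a log2 fold change of 0.12 ± 0.140 (limma, adjusted p = 0.517), with 0 hypertensive-LVH samples above the highest control of 4.78 FPKM.

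The size of the change differed between the sets. The interaction of group and set, tested with limma over all genes, passed an adjusted p under 0.05 for 6 of the 10 genes (Sfrp1, Sfrp2, Frzb, Fzd1, Fzd2 and Fzd7), beside 7.49% of all genes tested. The log2 fold change in samples 4 to 6 alone was 4.58 for Sfrp2, 3.97 for Dkk3, 3.96 for Sfrp1 and 3.91 for Frzb, and 1.60, 1.34 and 1.00 for Fzd2, Fzd1 and Fzd7. For Frzb the value was 0.36, 0.37 and 0.54 in the other sets, in order. Control samples 4 to 6 held 3 negative values of Sfrp2, 2 of Dkk3, 2 of Frzb and 1 of Sfrp1. These were set to 0, so the size of the log2 fold change and of the interaction for these genes depends in part on that floor. Fzd1, Fzd2 and Fzd7 had 0 negative values. Without samples 4 to 6 the interaction passed for 0 of the 10 genes and for 3 of all 14026 genes (0.0214%).

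**Figure D4:**
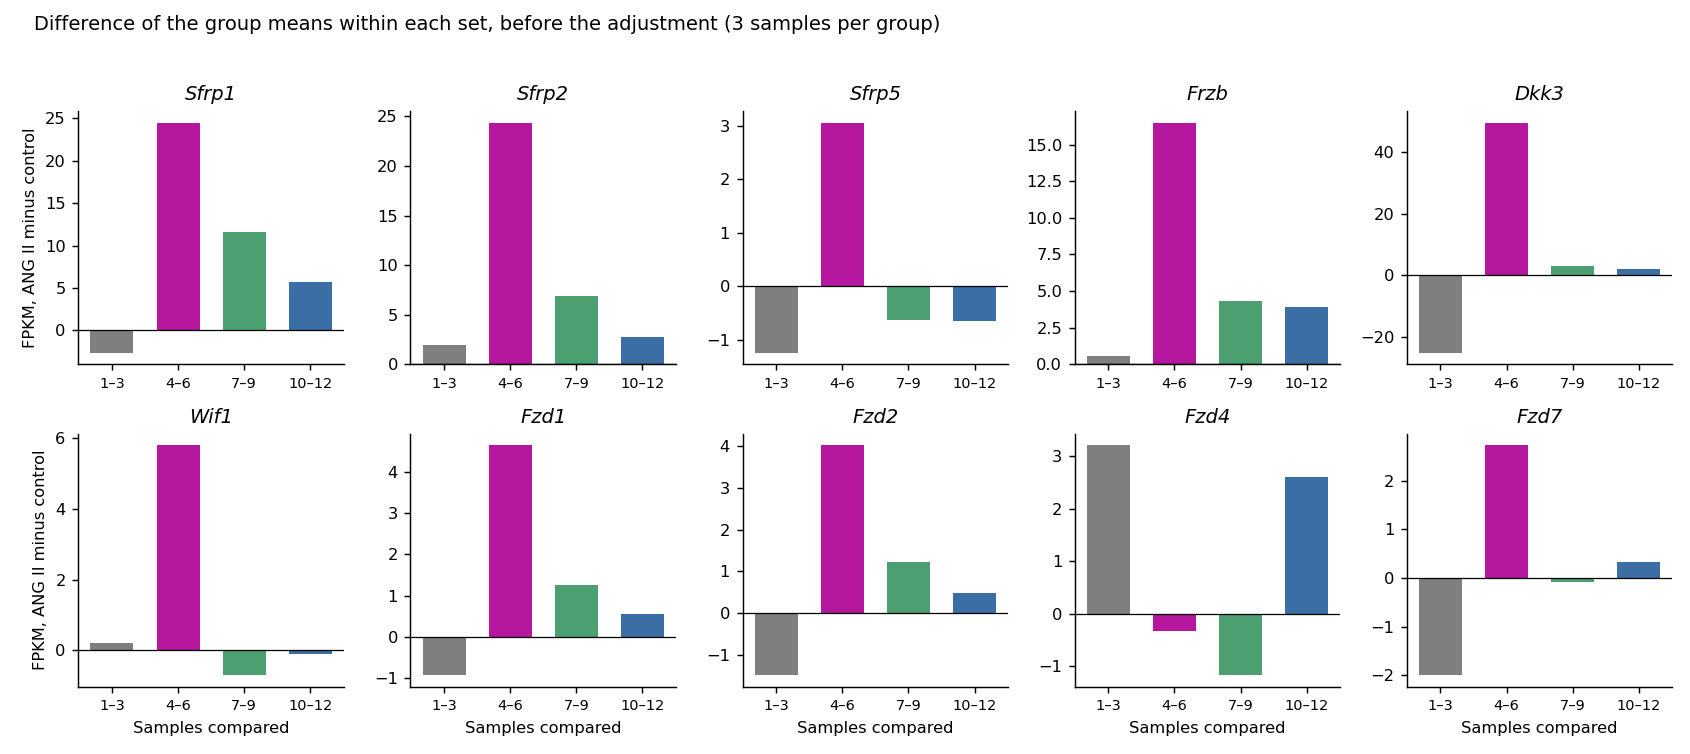
Difference of the group means in FPKM (hypertensive-LVH minus control, 3 samples each) within each set before the adjustment, each panel on its own scale. The bar of samples 4 to 6 is the highest for 9 of the 10 genes, and for Fzd4 it is -0.333 FPKM.

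In every set except samples 4 to 6, the same hypertensive-LVH sample was the highest of its group for all 5 called genes. In samples 1 to 3 it was sample 1, at 15.7 FPKM of Sfrp1, 17.2 of Sfrp2, 8.97 of Frzb, 3.93 of Fzd1 and 2.95 of Fzd2. Control sample 2 was higher than this for Fzd1 (4.29 FPKM) and Fzd2 (4.51 FPKM). Hypertensive-LVH sample 8 had the highest value of samples 7 to 9 for all 5 called genes, at 31.1 FPKM of Sfrp1, 20.8 of Sfrp2, 10.2 of Frzb, 4.89 of Fzd1 and 4.35 of Fzd2. Hypertensive-LVH sample 11 held that place in samples 10 to 12, at 23.0, 16.5, 13.1, 5.55 and 5.06 FPKM. Samples 1, 8 and 11 also had the highest fibroblast marker sums of their sets, at 1853, 2229 and 1895 FPKM. The other hypertensive-LVH samples of these sets had 1141 to 1531 FPKM. The fibroblast list was not alone in this. Among the hypertensive-LVH samples of each set, samples 1, 8 and 11 also had the highest endothelial, smooth muscle and pericyte, and activated fibroblast sums. Samples 8 and 11 had the highest macrophage sums as well, at 1045 and 770 FPKM. In samples 4 to 6 the highest sample differed by gene, being sample 6 for Sfrp1, Frzb and Fzd1, sample 4 for Sfrp2 (28.5 FPKM) and sample 5 for Fzd2 (5.24 FPKM), for which sample 6 was the lowest at 3.71 FPKM. With the mean of each group in each set removed, the Pearson r over 24 samples was 0.90 between Frzb and Fzd1, 0.82 between Frzb and Sfrp1 and 0.70 between Sfrp1 and Sfrp2, and it lay between -0.29 and 0.09 between Fzd4 and each of the others.

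Fibroblast markers moved with the same samples. With negative values set to 0, 10 fibroblast markers (Pdgfra, Tcf21, Dcn and fibrillar collagens among them) were summed. The sum lay between 1141 and 3266 FPKM under ANG II, against 655 to 1627 FPKM in controls. Of these markers 5 were higher and 1 was lower, the lower one being Gsn at a log2 fold change of -0.49, and of 10 activated fibroblast markers, such as Postn and Cthrc1, 8 were higher. Without samples 4 to 6 the counts were 1 higher and 1 lower, and 4 higher. The r with the fibroblast sum was 0.88 for Frzb, 0.86 for Fzd1, 0.85 for Sfrp1, 0.72 for Sfrp2 and 0.55 for Fzd2, and -0.36 for Fzd4. Other lists gave values of similar size. Fzd2 had an r of 0.82 with the endothelial sum, and Sfrp1, Frzb and Fzd1 had an r of 0.77, 0.72 and 0.71 with the sum of smooth muscle and pericyte markers. In whole ventricle, more cells of a type and more RNA per cell cannot be told apart, and the part of fibroblast number in these changes was not tested. The fibroblast markers Pdgfra (0.20, limma adjusted p = 0.0720), Tcf21 (0.20, 0.304) and Dcn (0.32, 0.126) were not called. Macrophage markers were higher for 10 of 10 genes, and for 0 of 10 without samples 4 to 6. Cardiomyocyte markers were lower for 5 of 10 and higher for 1, and lower for 3 and higher for 1 without samples 4 to 6.

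The transcripts most like the genes across the 24 samples, after the same removal of means, were taken from 11456 genes with a mean of at least 1 FPKM. For Sfrp2 they were Fn1 (fibronectin, r = 0.92), Cthrc1 (0.90) and Ltbp2 (0.90), all matrix genes. For Frzb they were Col18a1 (0.94), Src (0.93) and Epb41l1 (0.92), and for Sfrp1 Erlin1 (0.92), Col27a1 (0.92) and Rab23 (0.91). Those of Dkk3 were Car3 (0.98), Mlana (0.98) and Tmem163 (0.97), and those of Sfrp5 began with Cacna2d2 (0.91). Wif1 was closest to Vit (0.87) and Cytl1 (0.86), Fzd1 to Arrb1 (0.94), Fzd2 to Itpripl2 (0.91) and Fzd7 to Sulf1 (0.93), an enzyme that trims heparan sulfate.

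The rest of the Wnt pathway held calls in both directions. Of 95 further genes tested in 10 lists by role, 16 (beside 20.9% of all genes) were called higher and 10 (beside 12.6%) lower. The DEGs among them were 6 higher and 0 lower. Their median log2 fold change was 0.05, as it was for all genes. Without samples 4 to 6, 4 were higher and 8 lower (beside 8.36% and 11.6% of all genes). Among the ligands, Wnt5a, which acts mainly outside the canonical branch, fell from 4.54 ± 0.617 to 3.15 ± 0.456 FPKM, a log2 fold change of -0.42 ± 0.0671 (limma, adjusted p = 6.29e-05). The groups scarcely overlapped, at 2.32 to 3.85 FPKM under ANG II against 3.73 to 5.60 FPKM in controls, and without samples 4 to 6 the value was -0.48. Wnt9b was higher by 0.60 (limma, adjusted p = 0.0465) and by 0.06 without samples 4 to 6. Wnt11, a ligand of the planar polarity branch, had a log2 fold change of 0.05 (limma, adjusted p = 0.741).

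Among the other receptors and antagonists, Fzd8 was lower by a log2 fold change of -0.24 (limma, adjusted p = 0.0257) and was the 1 call of 5 Frizzled genes. Dkk2 was higher by 0.10 (limma, adjusted p = 0.0242) at a mean of only 0.170 FPKM, and Sfrp4 had a value of 0.18 (adjusted p = 0.0972). The co-receptor Lrp5 was higher by 0.14 (limma, adjusted p = 0.0196) and the Wnt5a receptor Ror2 by 0.25, whereas Lrp6 had a value of 0.07 (adjusted p = 0.357). Leaving out samples 4 to 6, the calls of Dkk2 (limma, adjusted p = 0.223), Lrp5 (0.07, adjusted p = 0.289) and Ror2 (0.08, adjusted p = 0.505) were lost, and Fzd8 remained called at -0.34. Lgr6, a receptor for R-spondins, fell by 0.37 on the log2 scale (limma, adjusted p = 0.000520).

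Inside the cell, Ctnnb1 (β-catenin) had a log2 fold change of 0.12 (limma, adjusted p = 0.0609). Csnk1a1, a kinase of the β-catenin destruction complex, was higher by 0.20 and Apc2 was lower by -0.24. Of the nuclear partners Bcl9l was higher by 0.32 and its paralog Bcl9 lower by -0.17. Apc2 remained called without samples 4 to 6, and Csnk1a1, Bcl9l and Bcl9 did not (limma, adjusted p = 0.0508, 0.154 and 0.0737). Axin2, the widely used readout of canonical signalling, averaged 1.69 ± 0.498 and 1.68 ± 0.479 FPKM, a log2 fold change of 0.01 (limma, adjusted p = 0.961), and -0.22 without samples 4 to 6 (adjusted p = 0.0710). Among 11 feedback and target genes 4 were higher (beside 20.9% of all genes) and 1 lower (beside 12.6%), led by Wisp2 at 1.61 (limma, adjusted p = 0.00561) and Tnfrsf19 at -0.40 (adjusted p = 0.000780). Without samples 4 to 6 this list held 3 higher and 1 lower (beside 8.36% and 11.6% of all genes). Wisp2 was then at 0.57 (limma, adjusted p = 0.0377) and Tnfrsf19 at -0.54 (adjusted p = 0.000231). Of 18 genes tested in the planar polarity and calcium branch, 4 were higher (beside 20.9% of all genes) and 3 lower (beside 12.6%). Among them were Nfatc4, a calcineurin-dependent factor, at 0.50 and Celsr2, a planar polarity cadherin, at -0.31 (limma, adjusted p = 2.49e-05). This branch held 1 higher and 3 lower without samples 4 to 6 (beside 8.36% and 11.6% of all genes), and Nfatc4 was then at 0.18 (limma, adjusted p = 0.156).

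**Figure D5:**
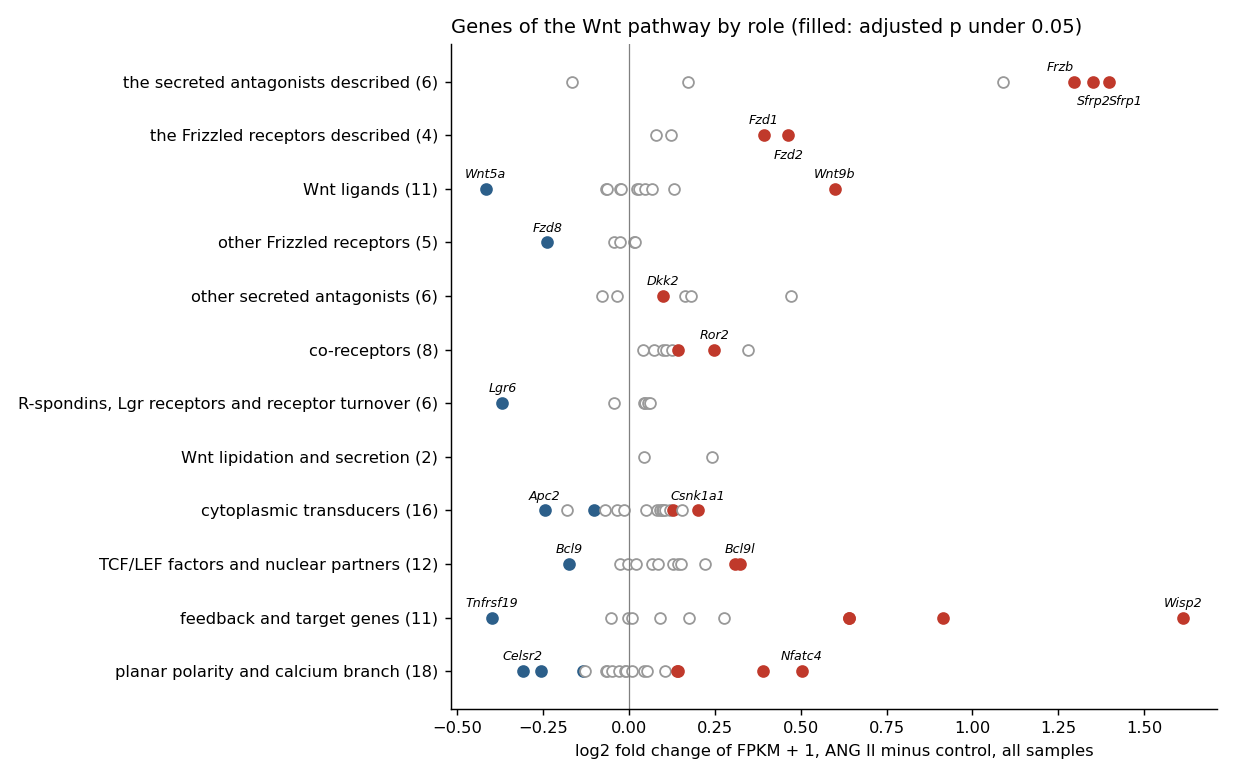
Log2 fold change (hypertensive-LVH minus control, all samples) of the 10 genes and of 95 further Wnt pathway genes tested, each dot a gene and each row a role with its number of genes; filled dots have an adjusted p under 0.05 in limma (red higher, blue lower). Sfrp1, Sfrp2, Frzb and Wisp2 lie at the far right and Wnt5a at the far left.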

How the data were processed

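RNA selected with oligo(dT) beads was sequenced, and the tools named in the submitters' processing notes are HISAT, Bowtie2 and RSEM, with no version, while the genome build and annotation are not given in the sources used here. The deposited table gives 1 value per gene symbol and sample, labelled FPKM by the authors. Because it holds negative values, the deposited values were treated as a score on the FPKM scale that had been adjusted within sets of samples. Samples with at least 100 tied genes were joined into a set. Scale factors were recovered from the 0.01 FPKM steps between values, for 14104 genes (94.6%). Tested on simulated data, the recovery found 289 of 300 genes and gave 0 wrong answers.

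Negative values were set to 0 and the 14026 genes averaging 0.1 or more were tested on log2(FPKM + 1) with limma 3.58.1 in R 4.3.3, with an intensity trend, the group as the only term, and two-sided p-values. The added 1 shrinks the fold changes of low genes on this scale. Where negative values were set to 0, a fold change can instead be larger than the group means give. For Nppa it was 6.96 on the log2 scale, at means of 2050 and 432 FPKM. DEGs had an adjusted p under 0.05 and a log2 fold change beyond 0.5 either way. Tested on simulated data of 14026 genes, the fit called 191 of 200 that changed and 11 others. The simulated data had independent noise, no sets and no adjustment within sets. They do not show how many calls on the deposited values are false. Exact permutation tests used all 160000 relabelings within sets. Means, SD and ranges of single genes used the values as deposited. Sums of markers, and the log2 values behind each r, were taken with negative values set to 0. Python 3.11.15, numpy 2.4.6, pandas 2.3.3 and scipy 1.17.1 were used.

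The genes described and the lists were chosen with earlier results of these data known. Named from the lists were the called genes with the largest increase and decrease of each list, Axin2, Ctnnb1, Lrp5, Lrp6, Wnt5a, Wnt11, Sfrp4 and Dkk2 whatever their change, and for each described gene the 3 transcripts with the highest r, of which some are given. Gsn, the other fibroblast markers and Myl2 were named after their values were seen. Alternatives were another pseudocount, filter or scaling, no trend, genes without negative values, the set or the replicate number as a term, a Wilcoxon rank-sum test, leaving out a sample or a set, and a set alone. Tests on values before the adjustment, without samples 4 to 6 for the interaction and the lists, and without control sample 2 and hypertensive-LVH sample 6 were added after the data were seen.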

Additional observations from a re-analysis of the deposited data

Results flagged for a closer look

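For 6 of the 10 genes the difference between the hypertensive-LVH and control groups was not the same in the 4 sets of samples, by the interaction of group and set in limma over 14026 genes. The adjusted p was 0.000509 for Sfrp1, 4.55e-06 for Sfrp2, 1.00e-07 for Frzb, 0.0168 for Fzd1, 0.0113 for Fzd2 and 0.0172 for Fzd7. In each of the 6 the log2 fold change of samples 4 to 6 was the largest of the sets, and without those samples the interaction passed for 0 of them, with adjusted p-values from 0.878 to 0.985. Groups of 12 samples were too large for the test of single outlying samples.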

How the results depend on the processing

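On the deposited values all alternatives that could test Sfrp1, Sfrp2 and Frzb kept them higher in the hypertensive-LVH group, and 0 of the 10 genes were called lower under any of them. The main count of 5 genes called higher became 3 with the set as a term, without samples 7 to 9, with an exact permutation within sets on deposited or earlier values and with the Wilcoxon test. It became 2 with the replicate number as a block and among genes with no negative value (where Sfrp1, Sfrp2 and Frzb were not tested), 1 without samples 4 to 6, and 0 in samples 1 to 3, 7 to 9 or 10 to 12 alone. Leaving out 1 sample gave 3 to 5. Of all genes, 4697 were called and 831 were DEGs. Calls fell to 2824 with the replicate block and 2802 without samples 4 to 6 (552 DEGs). They were 0, 608 and 21 in samples 1 to 3, 7 to 9 and 10 to 12 alone, with 0, 536 and 21 DEGs. DEGs rose to 1489 at a pseudocount of 0.1 and 2696 in samples 4 to 6 alone. Interactions fell from 6 of the 10 genes to 0, and called pathway genes from 26 to 12, without samples 4 to 6. Higher and lower calls were 2928 and 1769, 2394 and 2235 with median-ratio scaling, and 1922 and 2930 with quantile normalization, under which the overall median shifted from 0.05 to -0.02 on the log2 scale.

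Uncalled or weakly called genes changed sign in part. Without samples 4 to 6 Wif1 was at -0.18 and Fzd7 at -0.17, without samples 7 to 9 Sfrp5 was at 0.013, and without samples 1 to 3 Fzd4 was at -0.0053. In samples 1 to 3 alone Fzd1 was at -0.11, Fzd2 at -0.22 and Fzd7 at -0.40. In samples 4 to 6 alone Sfrp5 was at 0.88 and Fzd4 at -0.054. In samples 7 to 9 alone Dkk3 was at -0.20, Wif1 at -0.56, Fzd4 at -0.26 and Fzd7 at -0.20, and in samples 10 to 12 alone Dkk3 was at -0.085 and Wif1 at -0.12. With 1 sample left out Wif1 lay between -0.0087 and 0.24. Same-numbered samples of the groups did not pair, with correlations from -0.557 to -0.0011, so a call lost under the replicate block is not read as a weaker effect. The cause of these changes was not tested.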
